A study of Mus musculus with 2207 samples.

Results

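A set of imprinted genes was followed through single-nucleus total RNA profiles of mouse cortex: Meg3, Rian, Mirg, Peg3, Zim1, Usp29, Kcnq1ot1, Airn, Grb10 and Nnat. They were taken by gene symbol, and all 10 were found among the 52636 genes of the deposited tables. The list was drawn up with results of these data known, and which values bore on the choice is not stated. Levels by cell type are therefore given as a description, and p-values of the members are not independent evidence of a pattern. The study examined mice that lack 1 allele of Ehmt1, which encodes the histone H3K9 methyltransferase GLP, as a model of Kleefstra syndrome. By the labels, all mice were C57BL/6, 14 weeks old and had received 100 mg/kg tamoxifen 2 times at 3 weeks of age. The study's methods put an interval of a week between the doses. The 2207 nuclei fall into 6 pools, each from 3 mice of 1 genotype: wild type (Ehmt1+/+) and Ehmt1Δ/+ on 96-well plates, and 4 pools on 384-well plates. By the labels, the 384-well WT and Ehmt1Δ/+ pools carried the Ehmt1 iTg transgene without CamKII-CreER, whereas the study's text describes all the 384-well groups with CamKII-CreER. The labels were followed, and every comparison of 384-well pools rests on them. The iTg and Ehmt1Δ/+ iTg pools carried both, so that tamoxifen could induce FLAG-tagged GLP in forebrain excitatory neurons, where the CamKII promoter is active. The labels do not say which mouse a nucleus came from, so the pool is the unit of replication throughout.

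Imprinted genes are expressed mainly from 1 parental allele, according to DNA methylation marks set in the germ line. Clusters of such genes often share a control region, and some contain a long noncoding RNA that acts in cis on its neighbours. Many imprinted genes are highly expressed in brain, where they bear on growth, metabolism and behaviour. GLP and its partner G9a deposit H3K9me2, a repressive mark that has been linked to imprinted silencing.

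Meg3, Rian and Mirg are noncoding RNAs of the Dlk1-Dio3 domain, expressed from the maternal allele and transcribed in the same direction along chromosome 12. In GRCm38 with GENCODE M21, Meg3 lies at chr12:109541001-109571726, Rian at chr12:109603940-109661716 and Mirg at chr12:109729764-109749460, all on the plus strand. Rian is the host of small nucleolar RNAs, of which 13 are annotated within it. Mirg is the host of a large microRNA cluster, with 14 hairpins and 26 mature microRNAs of RefSeq inside it. Those 26 carry 25 different seeds, the bases 2 to 8 that pair with targets, so 1 seed occurs in 2 of them. That pair is printed with miR-134-5p, a brain microRNA known to act in dendrites, each seed being in capitals.
mmu-miR-134-5p: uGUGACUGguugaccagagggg
mmu-miR-453: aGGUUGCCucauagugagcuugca
mmu-miR-496a-5p: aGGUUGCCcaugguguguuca
The values reported here are those of the host RNA and not of the mature microRNAs.

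Peg3 and Usp29 are expressed from the paternal allele and Zim1 from the maternal allele of the Peg3 domain on chromosome 7. Peg3 (chr7:6703892-6730431, minus strand) encodes a zinc finger protein, Zim1 (chr7:6671269-6696450, minus strand) another, and Usp29 (chr7:6730578-6967219, plus strand) a ubiquitin-specific protease family member. Peg3 and Usp29 are transcribed away from each other. The bases between their RefSeq start sites, chr7:6730420-6730582 in GRCm38.p6, are printed on the plus strand because both genes share them as promoter, with each CCAAT in capitals.
Peg3-Usp29: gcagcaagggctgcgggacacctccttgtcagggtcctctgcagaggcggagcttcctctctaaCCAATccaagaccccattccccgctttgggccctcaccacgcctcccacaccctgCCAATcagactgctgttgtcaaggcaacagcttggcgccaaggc
The stretch holds 2 CCAAT and 5 CpG. CCAAT was searched on both strands and stands in 37.4% of 32851 RefSeq promoter windows of 300 bases. TGCCGC, the core bound by the imprint factor ZFP57 in its methylated form, was not found between Peg3 and Usp29. It stands in 11.6% of all windows and in the first window of Meg3, Zim1, Grb10 and Nnat.

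The other members belong to 4 different loci. Kcnq1ot1 (chr7:143203458-143296549, minus strand) and Airn (chr17:12741311-12860136, plus strand) are paternally expressed noncoding RNAs that run antisense to Kcnq1 and Igf2r and silence neighbouring genes in cis. Grb10 (chr11:11930508-12038683, minus strand) encodes an adaptor of the insulin receptor and is expressed from the paternal allele in neurons. Nnat (chr2:157560078-157562522, plus strand) encodes neuronatin, a small membrane protein, and lies within an intron of Blcap. By the stated settings, reads were counted without strand over exons. Intronic RNA of Igf2r, Kcnq1 or Blcap that covers an exon of Airn, Kcnq1ot1 or Nnat therefore cannot be told apart from them. Airn spans a long gene but is counted over 3597 exonic bases only. Of the exonic length of Usp29, 14.8% is shared with other genes, mainly Zim3. Within a tolerance of 0.02 reads, 34.4% to 81.9% of the values of Meg3, Rian, Mirg, Usp29 and Nnat were not whole reads, against at most 1.42% for Peg3, Zim1 and Grb10. For Kcnq1ot1 (96.4%) and Airn (37.9%) the exon length came from another version of the gene model. Peg3, Zim1, Airn and Grb10 share no exonic base with another gene.

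Median read totals per nucleus were 323273 to 397880 in the neurons of the 6 pools. In glia they were 441701 to 510639 on 96-well plates and 39940 to 54877 on 384-well plates, so a low gene was less detectable in 384-well glia. Oligodendrocyte and microglia markers went with the labels: the 6 oligodendrocyte markers summed to 2939 to 4483 RPKM in oligodendrocytes and 7.33 to 14.6 in neurons. The 6 microglia markers summed to 1976 to 3479 RPKM in microglia and 6.71 to 11.7 in neurons. The 2 oligodendrocyte precursor markers, Pdgfra and Cspg4, summed to 4.58 RPKM in the 96-well Ehmt1Δ/+ neurons. Every other neuron pool read at most 0.168 for them. RNA of Snap25, a synaptic gene, was also read in glia, at 31.7% of its neuron level in the oligodendrocytes of the 96-well WT pool and 0.981% in the lowest pool. Ehmt1 read 18.7 and 19.5 RPKM in the neurons of the WT pools and 31.2 and 31.7 in the libraries labelled Ehmt1Δ/+, against the direction of the label. This value covers the whole gene and is no check of the deleted part, so Ehmt1Δ/+ stands for the label throughout. The Ehmt1Δ/+ iTg pool stood apart from the other 384-well pools. Its log2 difference from the mean of the 384-well Ehmt1Δ/+ and iTg pools went with the difference of the 96-well pools from 384-well WT, with Pearson r = 0.74 across 23853 genes, which are not independent. The 2 differences have no pool in common.

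In neurons, Meg3 was by far the most abundant of the 10 RNAs per length. Its pool means were 736 RPKM at the lowest, 767 at the median and 860 at the highest, with a value above 0 in 99.6% to 100% of neurons. It ranked 5th or 6th among 29345 genes of at least 1 kb of exons, and took a median of 1.27% to 1.504% of the reads of a neuron. Rian ran from 89.35 to 151.01 RPKM and Mirg from 55.9 to 73.1. The 3 RNAs of the Dlk1-Dio3 domain thus stood in the order in which they lie on the chromosome, and the ranges of these 3 did not overlap.

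In glia, all 3 were far below their neuron level. The pools of oligodendrocytes held Meg3 at 0.604 to 8.44 RPKM, a median of 0.538% of the neuron level of the same pool. Oligodendrocytes read Rian at a median of 0.378% and Mirg at 0.288% of the neuron level, against 5.41% for Snap25. For Meg3 the 2 lowest oligodendrocyte pools were those on 96-well plates (0.960 and 0.604 RPKM), and the same held for microglia (0.407 and 0.370 RPKM). The highest microglia pool, 384-well Ehmt1Δ/+, read 13.95 RPKM with Meg3 above 0 in 94.7% of its nuclei. Over all pools, 61.96% of oligodendrocytes and 58.9% of microglia had a Meg3 value above 0. Mirg was at 0 in 4 of the 6 microglia pools, and 1.37% of all microglia had a value above 0 (95% interval 0.166 to 4.86%).

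Peg3 was the one abundant member that was also well represented in oligodendrocytes. Its neuron pools lay at 78.03 to 94.99 RPKM with a median of 82.8, and every neuron had a value above 0. Oligodendrocytes read 13.5 to 18.7 RPKM, a median of 20.6% of the neuron level. Microglia read 1.01 to 6.17 RPKM, and the 2 pools above 2 RPKM were the 96-well and the 384-well WT pools. The ranges of the 3 cell types did not overlap.

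The other genes of the Peg3 domain were low. Usp29 ran from 3.46 to 9.13 RPKM in neurons, and 2 of 6 pools were at 0 in oligodendrocytes and in microglia alike. Zim1 ran from 1.16 to 4.35 RPKM in neurons and from 0 to 2.03 in oligodendrocytes, so these ranges overlapped. The median Zim1 level of oligodendrocytes was 63.4% of the neuron level of the same pool, and 2 pools were above 100%. Of 1664 neurons, 19.7% had a Zim1 value above 0 (95% interval 17.8 to 21.7%), against 6.05% of oligodendrocytes (3.91 to 8.86%). None of the microglia did, and 3 counts over their number, the limit that a count of 0 allows, came to a share of 2.05%.

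Kcnq1ot1 and Nnat were well represented in both glial types. Kcnq1ot1 read 10.7 to 20.5 RPKM in neurons, 2.91 to 8.80 in oligodendrocytes and 1.43 to 5.95 in microglia. In each cell type its 2 highest pools were on 96-well plates. Nnat read 13.1 to 18.4 RPKM in neurons, 3.15 to 5.84 in oligodendrocytes and 2.16 to 8.82 in microglia. The neuron range stood above both glial ranges for either gene, and the 2 glial ranges overlapped.

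Grb10 ran from 5.47 to 6.97 RPKM in neurons and from 0 to 0.547 in oligodendrocytes. Airn ran from 1.14 to 1.75 RPKM in neurons and was read in 27.3% of them (25.2 to 29.6%). In microglia Airn was at 0 in 4 pools, and the 384-well Ehmt1Δ/+ pool reached 1.58 RPKM through 1 of its 19 nuclei. In the order of neuron levels, Rian overlapped Peg3, Nnat overlapped Kcnq1ot1, Grb10 overlapped Usp29, Usp29 overlapped Zim1 and Zim1 overlapped Airn, so those neighbours were not separated by the spread over pools.

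**Figure D1:**
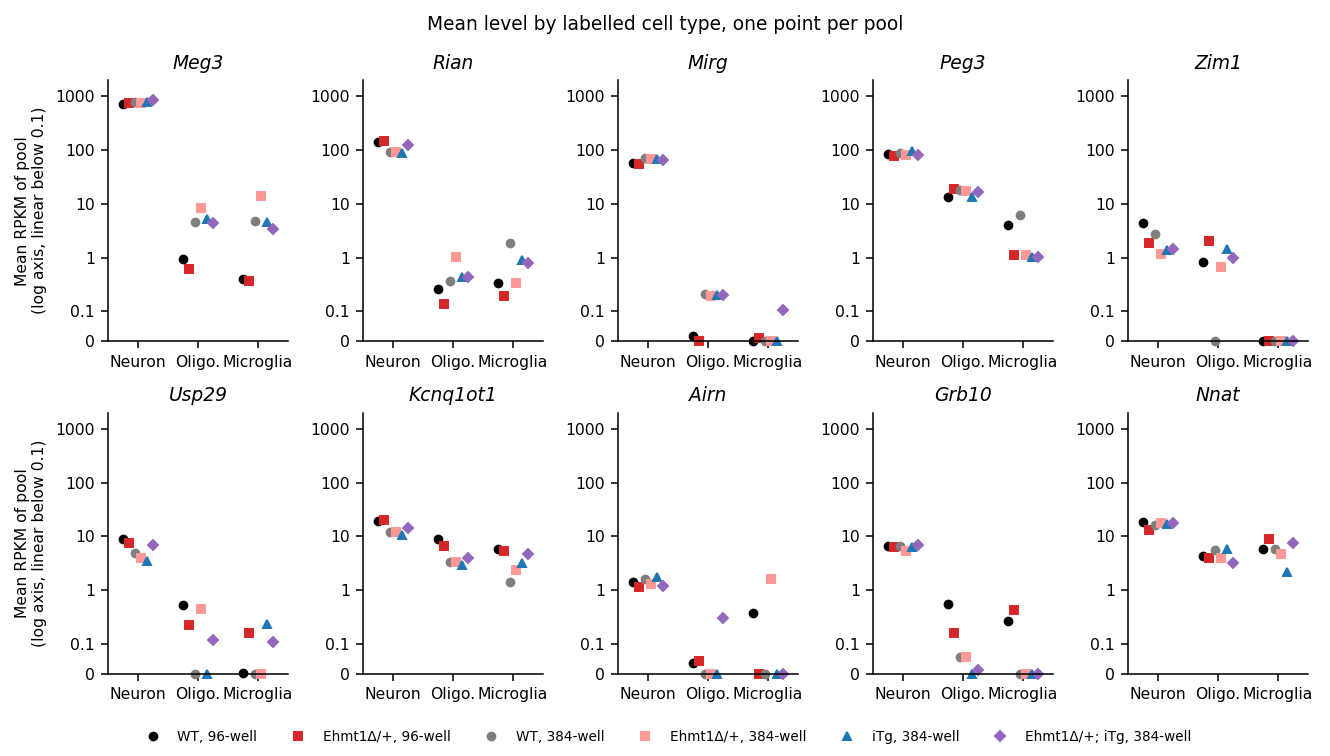
Mean RPKM of each gene (y, log axis that is linear below 0.1) in neurons, oligodendrocytes and microglia (x), with 1 point per pool. Meg3 sits between 736 and 860 RPKM in neurons and at most at 14.0 in glia, while Peg3 steps down from neurons to oligodendrocytes to microglia and Zim1 is at 0 in all microglia pools.

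Neuron pools lay wholly above oligodendrocyte pools for 9 of 10 members, Zim1 being the exception, and above microglia pools for 9 of 10, with Airn the exception. The same held for 30.6% of 29398 detected genes against oligodendrocytes and for 29% against microglia. These counts are a description, since the cell type labels came from all genes of the same nuclei.

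The comparison of neuron classes asked whether excitatory and inhibitory neurons differ in these RNAs. Each neuron was called by the larger of its Slc17a7 (the glutamate transporter VGLUT1) and Gad1 (GABA synthesis) values, and 7 of 1664 neurons had equal values. Inhibitory neurons numbered 43 to 73 in a pool, which was 16.2% to 25.6% of its neurons. Pdgfra, the precursor marker, averaged 0.0286 ± 0.0275 RPKM in excitatory and 2.78 ± 6.49 in inhibitory neurons (SD over 6 pools). The part of nuclei with precursor markers in the inhibitory values of 96-well Ehmt1Δ/+ was not tested. Of the 10 members, 8 were higher in inhibitory neurons by limma at an adjusted p under 0.05, in 6 of 6 pools each, and none was lower. Among all 25586 genes tested, 21.3% were called higher in inhibitory neurons and 19.2% lower, and 21.6% were higher in 6 of 6 pools. The median log2 difference of the 10 members was 0.61, beside 0.023 over all genes.

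On log2(mean RPKM + 0.1), Zim1 differed most. Excitatory pools ran from 0.522 to 1.90 RPKM with a median of 0.708, and inhibitory pools from 3.40 to 11.9 with a median of 5.93. The ranges did not overlap, and the log2 difference was 2.66 (SE 0.18, adjusted p = 6.06e-05, 6.33-fold). The share of nuclei with a value above 0 was 10.5% to 16.2% in excitatory neurons and 26.9% to 54.8% in inhibitory neurons. Inhibitory neurons had the higher median read total on 96-well plates and the lower one on 384-well plates, and the share was higher in both. On the mean of log2(RPKM + 1) over nuclei the difference of Zim1 was 0.96, under that of Usp29 (1.31) and level with that of Grb10 (0.96), and that of Airn was 0.57, all still called by limma.

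The second member of the same domain with a wide gap was Usp29. It averaged 4.30 ± 1.56 RPKM in excitatory and 12.2 ± 4.73 in inhibitory neurons (SD, n = 6 pools). The log2 difference was 1.47 (SE 0.08, adjusted p = 2.67e-05), and each pool was higher in inhibitory neurons. Peg3 averaged 75.6 ± 4.38 RPKM in excitatory and 121.06 ± 11.9 in inhibitory neurons, a log2 difference of 0.67 (SE 0.06, adjusted p = 0.000202). All excitatory pools of Peg3 lay under all inhibitory pools.

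Airn and Grb10 were also higher in inhibitory neurons. Airn averaged 0.986 ± 0.114 RPKM in excitatory and 2.94 ± 0.839 in inhibitory neurons (log2 difference 1.44, SE 0.17, adjusted p = 0.000581). Grb10 averaged 5.38 ± 0.399 and 10.5 ± 1.18 RPKM (log2 difference 0.95, SE 0.07, adjusted p = 9.94e-05). Neither gene had overlapping ranges.

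The RNAs of the Dlk1-Dio3 domain differed less. Meg3 averaged 717 ± 45.6 RPKM in excitatory and 1019 ± 71.2 in inhibitory neurons, a log2 difference of 0.51 (SE 0.06, adjusted p = 0.000681). The log2 difference was 0.54 for Mirg (SE 0.07, adjusted p = 0.000841) and 0.33 for Rian (SE 0.06, adjusted p = 0.00549). Meg3 and Mirg had separate ranges, whereas those of Rian overlapped (83.3 to 146.3 and 106.96 to 171.97 RPKM). Without the pool as a block the Rian call was lost (adjusted p = 0.336).

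Kcnq1ot1 and Nnat did not pass the test. The log2 difference of Kcnq1ot1 was 0.023 with a 95% interval from -0.16 to 0.21, and 3 of 6 pools were higher in inhibitory neurons. Nnat was at -0.18 (95% interval -0.40 to 0.042), and 1 of 6 pools, Ehmt1Δ/+ iTg, was higher in inhibitory neurons. On the mean of log2(RPKM + 1) over nuclei, Nnat passed as lower in inhibitory neurons (-0.30, adjusted p = 0.0157).

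**Figure D2:**
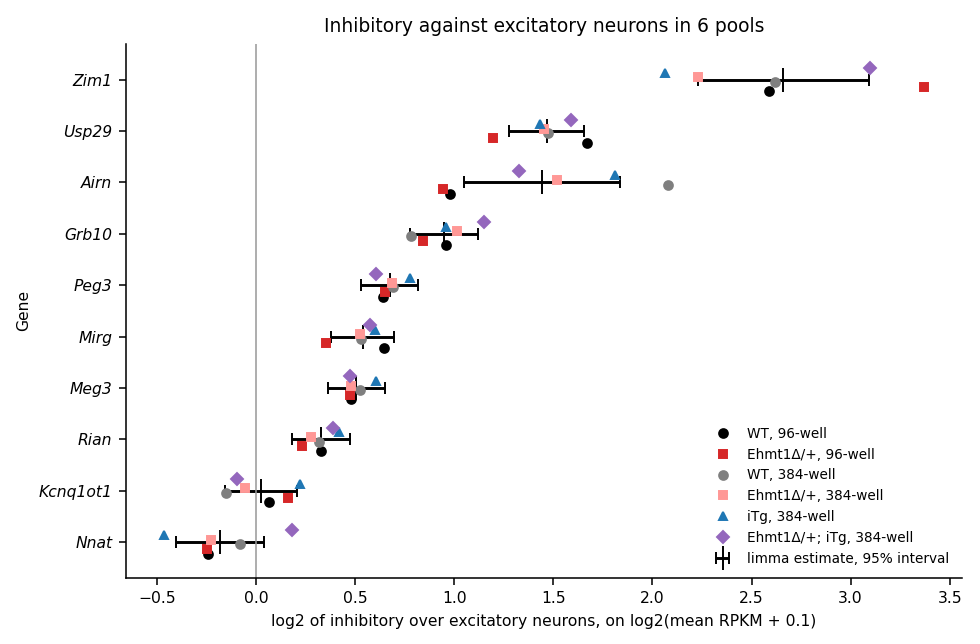
Log2 of inhibitory over excitatory neurons on log2(mean RPKM + 0.1) (x) for each gene (y), with 1 point per pool and the limma estimate with its 95% interval. Zim1 stands at 2.66, Usp29 at 1.47 and Airn at 1.44, while the intervals of Kcnq1ot1 and Nnat include 0.

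Inhibitory neurons were further sorted by the largest of Sst, Pvalb, Vip and Lamp5, which mark separate interneuron groups. Lamp5 itself read 18.8 ± 2.32 RPKM in excitatory and 11.9 ± 5.63 in inhibitory neurons (SD over pools). Its class difference of -0.78 was not called (SE 0.30, adjusted p = 0.0776 by limma), so it was not particular to inhibitory neurons. The groups were chosen after values had been seen and are described without a test. Peg3 was highest in Pvalb nuclei, at 140 to 198.6 RPKM over the pools, and lowest in Lamp5 nuclei, at 63.9 to 100.98, with no overlap of these ranges. Meg3 read 949 to 1305 RPKM in Pvalb and 688 to 852 in Lamp5 nuclei. Its ranges in Sst (987 to 1249) and Vip nuclei (936 to 1235) overlapped that of Pvalb nuclei. The Lamp5 ranges overlapped those of excitatory neurons for Meg3 (671 to 804 RPKM) and Peg3 (71.2 to 83.2).

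Grb10 had the opposite order of Pvalb and Lamp5 nuclei. It read 11.2 to 25 RPKM in the 3 to 10 Vip nuclei per pool, 8.83 to 14.4 in Lamp5 nuclei and 5.52 to 8.30 in Pvalb nuclei. Vip and Pvalb ranges did not overlap. Zim1 ran from 2.10 to 17.1 RPKM in Sst nuclei and from 1.26 to 5.52 in Pvalb nuclei, which overlapped. The 28 inhibitory nuclei with none of the 4 markers, which 1 pool lacked altogether, read 9.94 to 21.04 RPKM, a range that overlapped those of Sst and of Lamp5 nuclei.

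The comparison of Ehmt1Δ/+ with WT neurons asked whether loss of 1 Ehmt1 allele alters these RNAs. It used the 96-well pair and the 384-well pair without CamKII-CreER. Column names carry a code, and whether it marks a plate or something else is not given. The 384-well WT columns carry a code of their own and the other 3 pools share another. Genotype and code therefore cannot be told apart in the 384-well pair. By limma, none of the 23853 genes tested passed an adjusted p of 0.05, so 0 of 10 members did. At an unadjusted p under 0.05, 3.19% of genes were higher and 6.99% lower, and 2 members, Zim1 and Airn, were among the lower. In both plate formats, 6 members were lower and 2 higher, beside 35% and 23.6% of all genes. The median log2 difference of the members was -0.15, beside -0.033 over all genes. With 2 pools a genotype, the fit had 1 residual degree of freedom.

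Zim1 showed the widest difference. Its neuron means were 4.35 RPKM in WT and 1.88 in Ehmt1Δ/+ on 96-well plates, and 2.75 and 1.16 on 384-well plates. Within the 96-well plates the genotypes were compared at 3 column codes that both carried. There WT and Ehmt1Δ/+ read 4.44 and 1.68, 6.52 and 1.47, and 3.84 and 3.60 RPKM. The fitted log2 difference was -1.17 (SE 0.10, unadjusted p = 0.000581, adjusted p = 0.461 by limma). Both pairs gave -1.17, so this SE came mostly from the spread of all genes, which limma borrows. At the 3 codes the log2 difference ran from -2.08 to -0.093, so the SE is no measure of the spread of Zim1 itself.

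The third pair of pools did not repeat this gap. Zim1 read 1.39 RPKM in the iTg pool and 1.44 in the Ehmt1Δ/+ iTg pool, so the 3 Ehmt1+/+ pools (1.39 to 4.35) overlapped the 3 Ehmt1Δ/+ pools (1.16 to 1.88). With all 6 pools in 1 fit the log2 difference was -0.76 (unadjusted p = 0.0473, adjusted p = 0.792). The gap was smaller by share than by mean: 24.9% of WT and 17.7% of Ehmt1Δ/+ neurons had a value above 0 on 96-well plates, and 18.9% and 18.0% on 384-well plates, with overlapping intervals in both. The 10 neurons with the highest values held 57.7% to 76.4% of the summed Zim1 level of a pool. On the mean of log2(RPKM + 1) the difference was -0.28.

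Values of inhibitory markers went with those of Zim1 in the WT and Ehmt1Δ/+ pairs of both plate formats, but not in the iTg pair. The share of inhibitory neurons was 24.5% and 25.6% in the WT pools and 16.2% and 16.99% in the Ehmt1Δ/+ pools. The 10 inhibitory markers summed to 240.8 and 204.3 RPKM in WT and 105.7 and 119.8 in Ehmt1Δ/+ neurons, and 7 of the 9 tested were lower at an unadjusted p under 0.05. Sst, the peptide somatostatin, read 111.3 and 19.4 RPKM in WT and Ehmt1Δ/+ neurons on 96-well plates and 88.6 and 34.4 on 384-well plates. Vip (6.12 and 10.9 RPKM) and Lamp5 (16.5 and 18.9) were higher in Ehmt1Δ/+ on 384-well plates, though not on 96-well plates. Of the 10 markers, Lamp5 was not higher in inhibitory than in excitatory neurons. In iTg and Ehmt1Δ/+ iTg neurons the markers summed to 193.8 and 135.99 RPKM and Sst read 101.5 and 44.2, while Zim1 read 1.39 and 1.44. Within classes, Zim1 was still lower in Ehmt1Δ/+: from 1.90 to 0.522 and 1.10 to 0.678 RPKM in excitatory neurons, and from 11.9 to 6.32 and 7.26 to 3.54 in inhibitory neurons. By share, 384-well excitatory neurons went the other way, with 10.5% of WT and 16.2% of Ehmt1Δ/+ nuclei above 0, and 10 nuclei held 93.9% of the summed level of that WT pool. In the iTg pair, inhibitory neurons read 3.40 RPKM in iTg and 5.53 in Ehmt1Δ/+ iTg. The fitted log2 difference was -1.15 in excitatory neurons (adjusted p = 0.529) and -0.96 in inhibitory neurons (adjusted p = 0.845). The part of interneuron types within a class, or of nuclei with precursor markers, was not tested.

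**Figure D3:**
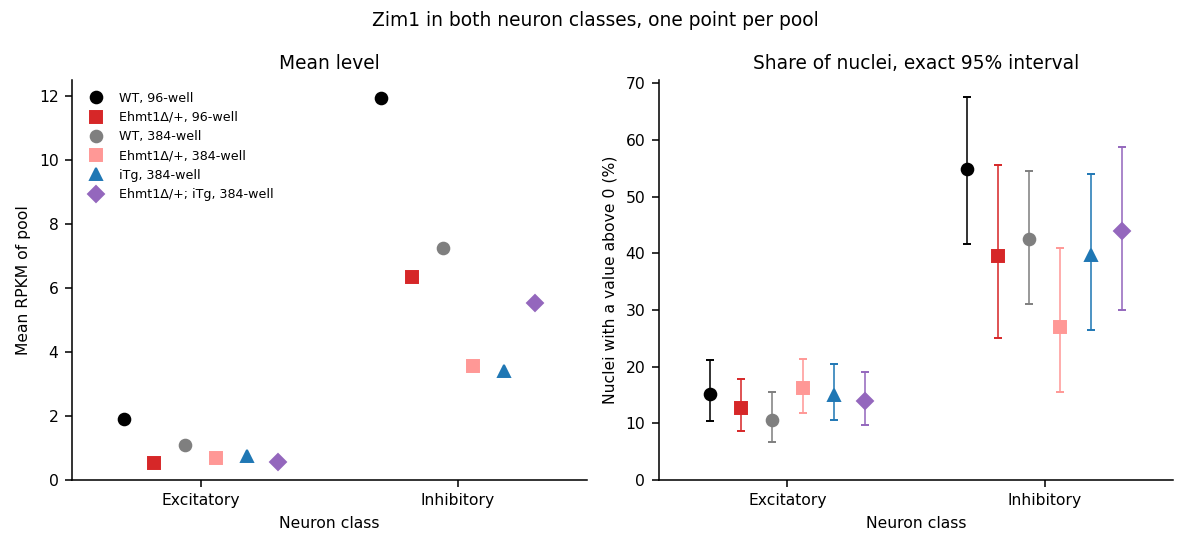
Zim1 in excitatory and inhibitory neurons (x), as mean RPKM of the pool (left) and as percent of nuclei with a value above 0 with exact 95% intervals (right), 1 point per pool. Every inhibitory pool reads at least 3.40 RPKM and every excitatory pool at most 1.90, and on the left the WT pools are the 2 highest in either class. On the right, 384-well WT is the lowest excitatory pool at 10.5%.

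Airn and Usp29 came next. Airn read 1.45 RPKM in WT and 1.14 in Ehmt1Δ/+ neurons on 96-well plates, 1.61 and 1.31 on 384-well plates, and 1.75 and 1.18 in the iTg pair, lower in all 3. The fitted log2 difference was -0.30 (SE 0.10, unadjusted p = 0.0476, adjusted p = 0.489). In excitatory neurons alone it was -0.0026 (SE 0.15).

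Usp29 read 9.13 RPKM in WT and 7.52 in Ehmt1Δ/+ neurons on 96-well plates and 4.83 and 3.97 on 384-well plates. The fitted log2 difference was -0.28 (SE 0.10, unadjusted p = 0.0594, adjusted p = 0.510). In excitatory neurons alone it was -0.025 (SE 0.11), and on the mean of log2(RPKM + 1) it was -0.067. In the iTg pair the order was the reverse, 3.46 and 6.98 RPKM, and Ehmt1Δ/+ iTg is the pool that stood nearer to the 96-well plates over many genes.

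The remaining members differed little. Peg3 read 84.1 and 78.03, 90.5 and 81.6, and 94.99 and 79.98 RPKM in Ehmt1+/+ and Ehmt1Δ/+ neurons of the 3 pairs, lower in each, with a fitted log2 difference of -0.13 (95% interval -0.42 to 0.17). Meg3 differed by -0.044 (-0.36 to 0.27), Rian by 0.070 (-0.23 to 0.37) and Mirg by -0.069 (-0.37 to 0.23). Kcnq1ot1 was at 0.048 (-0.25 to 0.35), Grb10 at -0.19 (-0.53 to 0.15) and Nnat at -0.17 (-0.73 to 0.38). Nnat read 18.4 and 13.1 RPKM in WT and Ehmt1Δ/+ neurons on 96-well plates, but 16.3 and 17.9 on 384-well plates.

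**Figure D4:**
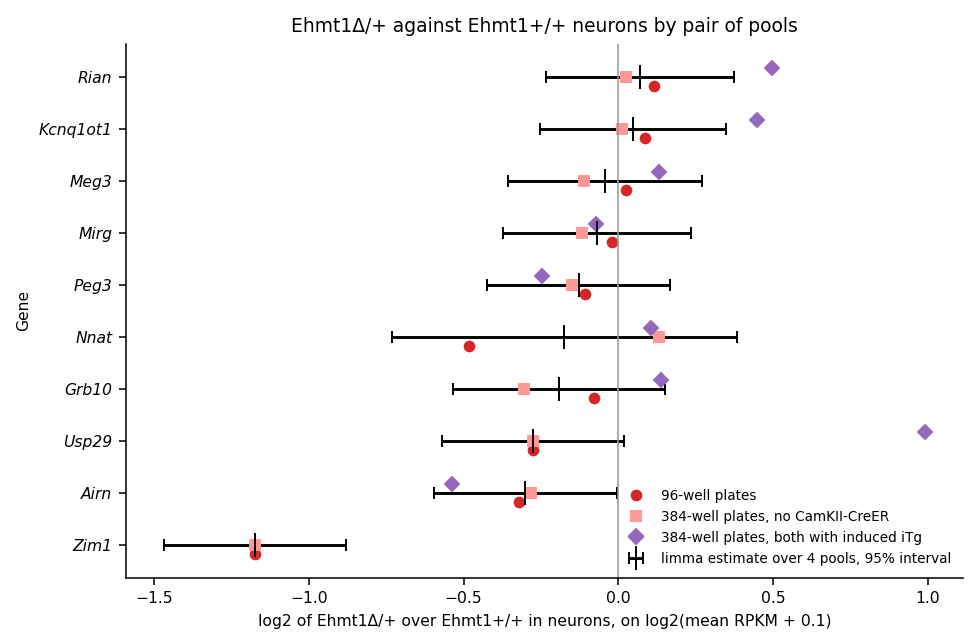
Log2 of Ehmt1Δ/+ over Ehmt1+/+ neurons on log2(mean RPKM + 0.1) (x) for each gene (y), with 1 point for each pair of pools and the limma estimate over 4 pools with its 95% interval. Zim1 lies at -1.17 in both pairs without CamKII-CreER and at 0.055 in the pair with the induced transgene.

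In glia, 5 members could be tested in each cell type and none passed, nor did any gene. In oligodendrocytes 1.68% of 12832 genes were higher and 3.04% lower at an unadjusted p under 0.05, and no member was among them. In microglia the shares were 0.899% and 1.03% of 13686 genes, and Peg3 was among the lower. Peg3 read 4.13 RPKM in WT and 1.11 in Ehmt1Δ/+ microglia on 96-well plates and 6.17 and 1.11 on 384-well plates. The log2 difference was -2.09 (SE 0.48, unadjusted p = 0.0236, adjusted p = 0.920). In the 384-well WT pool 3 of 16 microglia had a value above 0, and 1 of them read 93.3 RPKM. Without the highest nucleus of each pool, an alternative added after seeing the data, WT and Ehmt1Δ/+ read 3.48 and 0.438 RPKM on 96-well plates but 0.364 and 0.372 on 384-well plates. Both microglia pools with the induced transgene read 1.01 RPKM. The 5 neuron markers summed to 67.5 and 15.5 RPKM in the 96-well WT and Ehmt1Δ/+ microglia and to 6.24 and 5.20 on 384-well plates, and their part in the Peg3 value was not tested.

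The induced transgene, as labelled, was compared with its absence over the 4 pools on 384-well plates, to ask whether neurons differ with it. Ehmt1 RNA differed little with the transgene. It read 19.5 RPKM in WT and 20.7 in iTg neurons, and 31.7 in Ehmt1Δ/+ and 33.9 in Ehmt1Δ/+ iTg neurons. How much GLP was added is not shown by these values. The column code of WT differs from that of iTg, so code and transgene cannot be told apart in that pair. None of 23068 genes passed, and 0.676% were higher and 0.841% lower at an unadjusted p under 0.05, with no member among them. The largest member difference by size was that of Zim1, at -0.32 (SE 0.35, unadjusted p = 0.392, adjusted p = 0.9999 by limma). It was -0.94 between iTg and WT and 0.29 between Ehmt1Δ/+ iTg and Ehmt1Δ/+. Usp29 likewise moved by -0.47 and 0.80. The median over the 10 members was 0.043, beside 0.026 over all genes.

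Other genes of the same loci were read for comparison. Of 55 further imprinted or neighbouring genes, 54 were in the tables and 36 could be tested between neuron classes, of which 14 were higher in inhibitory neurons and 7 lower. These shares stand beside 21.3% and 19.2% of all genes. In the Dlk1-Dio3 domain, Rtl1, a retrotransposon-derived gene, read 54.2 to 85.1 RPKM in neurons. By limma it was higher in inhibitory neurons (log2 difference 0.34, SE 0.07, adjusted p = 0.00668). If strand was not used, as the stated settings give, RNA from the opposite strand over its exons cannot be told apart from Rtl1 RNA. The paternally expressed Dlk1 and Dio3 stayed under 0.6 RPKM in every neuron pool. In the Peg3 domain Zim3, which overlaps Usp29, had a log2 difference of 1.502 (SE 0.09, adjusted p = 3.63e-05).

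Neighbours did not always go with the member of their locus. Igf2r, the antisense partner of Airn, read 9.83 to 10.9 RPKM in neurons, and its class difference of 0.25 did not pass (SE 0.09, adjusted p = 0.0657). Mas1 (-2.23), next to Igf2r, and Cobl (-2.73), next to Grb10, were lower in inhibitory neurons by limma, against the direction of Airn and Grb10. Blcap, the host of Nnat, was lower as well (-0.22, SE 0.07, adjusted p = 0.0423). Among 6 tested genes of the Kcnq1 domain, Cd81 and Nap1l4 were higher in inhibitory neurons and Osbpl5 was lower.

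Among other imprinted genes, 10 of 22 tested were higher in inhibitory neurons and 3 lower. Nespas, an antisense RNA of the Gnas locus, had the widest gap (2.03 ± 0.792 against 0.206 ± 0.158 RPKM, log2 difference 2.87). Kcnk9, a potassium channel gene, went the other way, from 105.3 ± 19.02 RPKM in excitatory to 32.7 ± 11.5 in inhibitory neurons. Of the 35 tested by genotype in neurons, none passed an adjusted p of 0.05 by limma, and 3 (Gnas, Nespas and Sfmbt2) were lower at an unadjusted p under 0.05, beside 6.99% of all genes.

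Of 10 genes for imprint maintenance and H3K9 methylation, 2, Zfp57 and Dnmt1, were called higher in inhibitory neurons, beside 21.3% of all genes. Zfp57, the zinc finger protein that keeps imprints methylated, averaged 5.24 ± 1.23 RPKM in excitatory and 11.1 ± 5.91 in inhibitory neurons (log2 difference 0.94, SE 0.16, adjusted p = 0.00366). None of the 10 passed by genotype, with Ehmt1 itself at 0.71 (unadjusted p = 0.00327, adjusted p = 0.461).

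Within a pool, the RNAs of the Dlk1-Dio3 domain ranked neurons most alike. Spearman's rho between Meg3 and Rian was 0.78 at the median of 6 pools (0.78 to 0.80), and between Meg3 and Mirg it was 0.62 (0.58 to 0.72). It was 0.78 and 0.70 for Meg3 and Rian within excitatory and inhibitory neurons. Meg3 and Peg3, on different chromosomes, were at 0.54 (0.49 to 0.60). All values of a nucleus share its library and read total, with which Meg3 had a rho of 0.22.

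Peg3 and Usp29 reached 0.34 in all neurons, 0.26 within excitatory and 0.022 within inhibitory neurons. Zim1 and Usp29 had 0.28 in all neurons and 0.46 within inhibitory neurons. Peg3 and Nnat were the pair with the lowest value, at -0.23 (-0.25 to -0.20). Airn and Zim1 were read in few neurons, so their low values carry little weight.

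**Figure D5:**
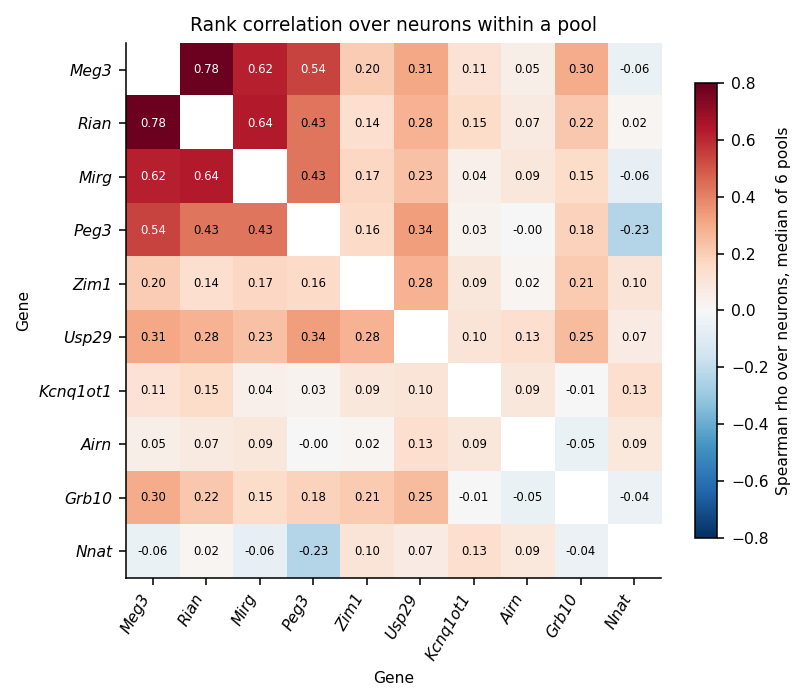
Spearman's rho over the neurons of a pool for each pair of genes (both axes), as the median of 6 pools. Meg3, Rian, Mirg and Peg3 form the block of highest values, from 0.43 to 0.78, and Nnat with Peg3 is the lowest at -0.23.

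Genes whose log2 level followed that of a member over the 18 means of 6 pools and 3 cell types were picked from 14300 candidates. Meg3 was closest to Miat (Pearson r = 0.98) and Snhg11 (0.98), both long noncoding RNAs. Mirg was closest to Aifm3 and Fbn1 (both 0.99), Grb10 to Igsf21 and Rbm24 (both 0.99), and Rian to Cntn6 (0.99) and Atoh7 (0.98). Usp29 was closest to Zfp385b and Homer2 (both 0.97), and Airn to Tox2 (0.98) and Chac1 (0.97). Kcnq1ot1 was closest to Plcb1 and Ints10 (both 0.97), Nnat to Acvr1b and Unc13b (both 0.96) and Zim1 to Vegfd and Teddm1a (both 0.95). The 18 means share libraries and fall into 3 cell types, so such values mostly describe the step between neurons and glia.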

How the data were processed

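The authors isolated cortical nuclei, sorted single nuclei into plates and prepared total RNA libraries by RamDA-seq. Per their methods, reads were trimmed and aligned to mm10 with HISAT2 2.0.4. They were counted per gene with featureCounts of Subread 1.5.0 at default settings, which use no strand. Those settings also give whole reads, whereas many values of some members were not whole reads. The settings in use may thus differ from the stated ones, strand included. The deposited values are RPKM per gene and nucleus. The authors also set the cell type labels, from a UMAP and marker genes. All 2207 labelled columns were used and 0 were left out. Of 52636 gene IDs, 49035 matched GENCODE M21 with the same version and 3368 with another version, which includes Kcnq1ot1 and Airn. Read totals per nucleus were recovered from the steps of the RPKM values.

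Since no label links a nucleus to its mouse, all nuclei of 1 genotype and plate format were taken as 1 sample, called a pool. Each pool held nuclei of 3 mice, and p-values measure only the spread between pools, which may be technical. In limma the spread of a gene is drawn towards that of all genes. Mean RPKM was taken per pool, cell type or neuron class, and log2(mean + 0.1) was fitted with limma (version 3.58.1, R version 4.3.3). P-values were adjusted over all genes tested by the Benjamini-Hochberg method and called at 0.05. Genotype fits took genes above 0 in at least 10% of nuclei in both pools of 1 genotype and carried plate format as a term, with 1 residual degree of freedom over 4 pools. The neuron class fit took genes past 10% in at least 3 pools of 1 class and carried the pool as a block. Fold changes are on this log2 scale, which understates those of low genes. Scripts were tested on simulated data. Intervals for shares are exact Clopper-Pearson intervals and cover counting error only.

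All 10 members are named. Of each list of further genes, called genes or else the 3 highest were eligible, and for each member the 2 genes with the most similar pattern, which are not reported here for Peg3. The members and lists were chosen with earlier results of these data known. Alternatives were other pseudocounts, filters, means, centring, classes and fits, and leaving out each pool. Not analysed here: allele-specific reads.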

Additional observations from a re-analysis of the deposited data

Results flagged for a closer look

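Some genotype differences had opposite signs in different pairs of pools, each pair being 1 pool against 1, so the differences between pairs were not tested. Meg3 differed between Ehmt1Δ/+ and WT neurons by 0.024 on the log2 scale on 96-well plates and by -0.11 on 384-well plates. Nnat differed by -0.48 on 96-well plates and 0.13 on 384-well plates. On 384-well plates, 4 genes had opposite signs without CamKII-CreER and with the induced transgene: Meg3 at -0.11 and 0.13, Zim1 at -1.17 and 0.055, Usp29 at -0.28 and 0.99, and Grb10 at -0.30 and 0.14. No pool stood outside the others by Dixon's test in the class differences of the 10 genes.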

How the results depend on the processing

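The genotype counts stayed at 0 under every alternative run, and so did those of the transgene. The class count of 10370 genes moved to 4991 without the pool as a block, where the Rian call was lost, and leaving out 1 pool gave 8696 to 9386. By genotype, Meg3 changed sign on the mean of log2(RPKM + 1) (0.00020), centred on the pool median (0.017), in excitatory neurons only (0.0069), over 6 pools (0.014) and at the 3 shared column codes (0.12, 0.0023 and 0.063). Mirg did so in excitatory neurons (0.016) and at 1 code (0.19), Usp29 over 6 pools (0.15), and Kcnq1ot1 (-0.073) and Grb10 (0.14) at 1 code each. Leaving out 1 pool, which leaves the other plate format, put Meg3 at -0.11 to 0.024 and Nnat at -0.48 to 0.13. By class, leaving out 1 pool put Kcnq1ot1 at -0.016 to 0.059, below 0 without 96-well Ehmt1Δ/+ and without iTg, and Nnat was called on the mean of log2(RPKM + 1). On that mean Zim1 (0.96), Airn (0.57) and Nnat (-0.30) by class moved by over 1.5 times. By genotype so did Zim1 (-0.28), Airn (-0.15), Usp29 (-0.067), Mirg (-0.032) and Kcnq1ot1 (0.019). The other member values kept sign and call, and the causes were not tested. Zim1 was not tested at a filter of 25%. Without the highest nucleus of each pool, Zim1 by genotype was at -1.30 in neurons and Peg3 at -1.36 in microglia. That alternative, inhibitory neurons only and median-centred classes were chosen after seeing the data. Without 1 pool, genotype and transgene fits had no residual degrees of freedom and so gave no count. Plate format pairs the genotype pools and the pool pairs the neuron classes in the fits as given. No paired analysis was possible because, beyond these terms, the labels give pools no shared replicate numbers.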
